A study of Mus musculus with 2 samples.

Results

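The cells described here were tumour cells of EMT6 tumours with the highest combined share of Sox9, Areg, Bdnf and Adm transcripts. They were chosen by those 4 genes among tumour cells that had passed a gate, and 768 cells were kept of 7688 gated tumour cells and 23657 cells in all. The gate asked for at least 200 genes and 2000 unique molecular identifiers (UMIs, each a counted transcript molecule), under 20% mitochondrial UMIs and at least 2 UMIs of the keratins Krt8 and Krt18. It also asked for less than 0.02% of UMIs from the leukocyte genes Tyrobp and Ptprc, less than 0.02% from the collagen gene Col5a2, fewer than 2 UMIs of Il24 and less than 0.05% from 5 mitotic genes (Cenpf, Ube2c, Cdc20, Cenpa and Prc1). Within each library the 10% of gated cells with the highest summed share of the 4 genes were then taken, which gave 614 of 6143 cells in one library and 154 of 1545 in the other. The remaining 5529 and 1391 gated cells are called the other tumour cells.

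EMT6 is a mouse mammary carcinoma line used as a model of triple-negative breast cancer, and 200000 cells were injected under the skin of immunocompetent female BALB/c mice bought at 5 to 6 weeks of age. Both groups received LLY-283, an inhibitor of PRMT5, at 50 mg/kg in cycles of 3 days with and 4 days without it, and the PARP inhibitor Olaparib (50 mg/kg daily). One group had nothing further (Olaparib + LLY-283), and the group named Combo also had an anti-PD-1 antibody (200 µg every 3 days). Each library was made with the 10x Genomics 3′ chemistry from tumours of 3 mice pooled before sequencing, so there was 1 library per group, no value per mouse and no untreated tumour. No test between groups was possible, and the intervals given below are 95% counting intervals that leave out the variation between mice. The libraries held 16115 cells with 147214934 UMIs (Olaparib + LLY-283) and 7542 cells with 162522700 UMIs (Combo). They shared 39 cell barcodes, none of them chosen in both libraries.

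The genes of the choice are a transcription factor and 3 secreted factors. Sox9 is a transcription factor of progenitor cells in many epithelia, the mammary gland among them, and of cartilage. Areg encodes amphiregulin, a ligand of the EGF receptor that is shed from the cell surface and acts in mammary duct growth. Bdnf encodes a neurotrophin that signals through the receptor TrkB. Adm encodes adrenomedullin, a peptide that widens vessels and whose gene is induced in low oxygen. Pdk4, which was not used in the choice, encodes a kinase that blocks pyruvate dehydrogenase and so turns cells away from glucose oxidation.

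In the mouse genome (GRCm38, GENCODE M21) these are protein-coding genes on separate chromosomes. Areg lies at chr5:91139599-91148432 on the plus strand, Adm at chr7:110627661-110629820 on the plus strand, Bdnf at chr2:109674700-109727007 on the plus strand, Sox9 at chr11:112782224-112787760 on the plus strand and Pdk4 at chr6:5483351-5496309 on the minus strand. The 250 bases before the start sites of Areg and Adm are shown because these genes supplied most of the UMIs on which cells were chosen, and those before Hk2 because its hexokinase belongs to the hypoxia response list described below and it was picked after its values were seen. They were taken from RefSeq (GRCm38.p6) at chr5:91139349-91139598 (plus strand), chr7:110627407-110627656 (plus strand) and chr6:82774455-82774704 (minus strand), and none of these windows overlaps an annotated exon. Capitals mark the cAMP response element TGACGTCA, which reads the same on both strands, and the hypoxia response core ACGTG or its reverse complement CACGT. The motifs share no site, since one continues ACGT with C and the other with G.
Areg: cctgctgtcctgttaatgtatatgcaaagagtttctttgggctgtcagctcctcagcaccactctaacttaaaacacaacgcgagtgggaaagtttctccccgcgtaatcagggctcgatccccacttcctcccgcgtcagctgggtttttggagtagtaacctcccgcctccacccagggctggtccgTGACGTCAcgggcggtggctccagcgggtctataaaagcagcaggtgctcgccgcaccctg
Adm: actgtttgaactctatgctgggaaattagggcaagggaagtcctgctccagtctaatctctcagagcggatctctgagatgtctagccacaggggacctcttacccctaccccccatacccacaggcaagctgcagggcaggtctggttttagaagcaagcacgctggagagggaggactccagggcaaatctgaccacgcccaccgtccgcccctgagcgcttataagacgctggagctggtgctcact
Hk2: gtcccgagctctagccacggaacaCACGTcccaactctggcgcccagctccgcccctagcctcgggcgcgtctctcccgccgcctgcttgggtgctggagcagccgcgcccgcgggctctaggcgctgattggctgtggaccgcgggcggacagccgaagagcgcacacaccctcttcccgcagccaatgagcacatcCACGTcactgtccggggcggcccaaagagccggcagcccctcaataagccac
The Areg element lies at bases 61 to 54 before the start site, and TGACGTCA occurs in 1.55% of all 32851 RefSeq promoter windows of this length. ACGTG occurs on either strand in 16.6% of them. Counted by gene over the compared genes with an entry, the shares are 3.19% and 26.9%. Of the 15 genes that differed most, described below, 11 had an entry and 4 of them held it (Hilpda, Dusp5, Bhlhe41 and Ankrd37), as did Bdnf alone among the genes of the choice and Pdk4. Bdnf had 7 starts in the table, and 2 of their windows held it. That at chr2:109674450-109674699 held it 2 times (atcactcacgacCACGTccgctggagaccc and cagtgagttggtCACGTaactggctcagag) and that at chr2:109692186-109692435 once (catatgacagctCACGTcaaggcagcgtgg). One of the 2 starts of Hilpda held it once (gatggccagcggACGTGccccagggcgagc). Of 35 named genes, Sox9, Dusp4, Plau, Usp53, Bhlhe40, Tmem100, Ccn5, Them6, Jade2 and Slc6a2 had no entry in this table.

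The summed share of the 4 genes ran from 0 to 2.23% in Olaparib + LLY-283 and to 0.696% in Combo with no break at the cut, so the chosen cells are the top of a range. The highest value of Olaparib + LLY-283 was a single cell far above the next. The cut fell at 0.1953% of UMIs in Olaparib + LLY-283 and at 0.1761% in Combo. The last 3 cells inside it had 0.1957%, 0.1955% and 0.1953% in Olaparib + LLY-283, and the first 3 outside had 0.1953%, 0.1952% and 0.1950%. In Combo the corresponding values were 0.1794%, 0.1780% and 0.1761% inside and 0.1750%, 0.1748% and 0.1747% outside. Within 20% of the cut there were 489 and 93 cells. The median share was 0.272% in chosen and 0.0448% in other cells of Olaparib + LLY-283, and 0.246% and 0.0315% in Combo.

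**Figure D1:**
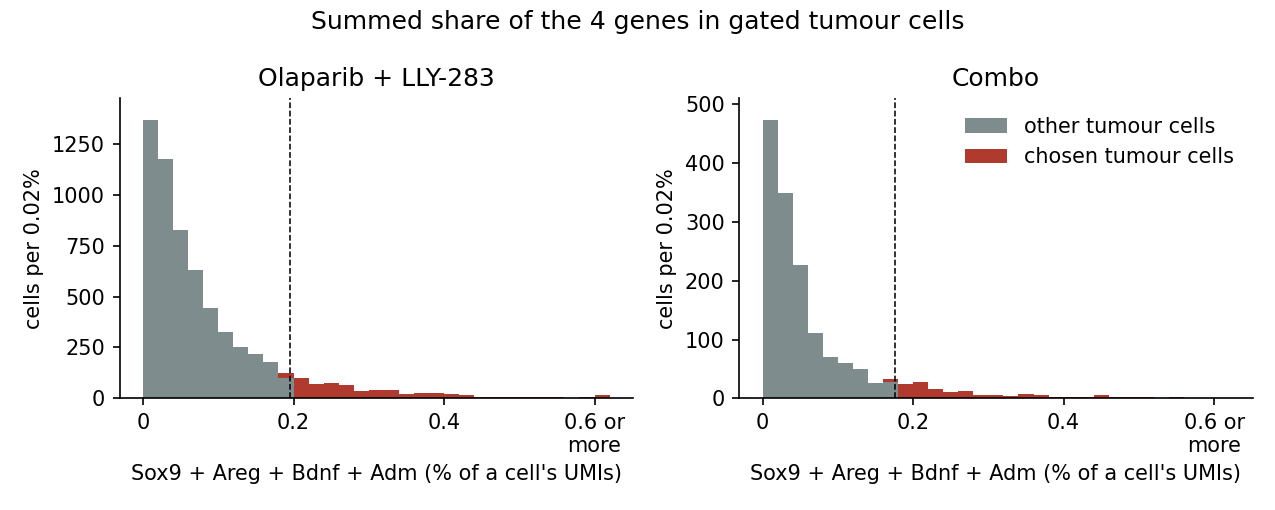
Histograms of the summed share of Sox9, Areg, Bdnf and Adm (percent of a cell's UMIs, x axis, with all cells at 0.6% or more in the last bar) over gated tumour cells of each library (cells per bar, y axis), with the cut as a dashed line. Both distributions fall off steadily through the cut, and 489 (Olaparib + LLY-283) and 93 (Combo) cells lie within 20% of it.

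The chosen cells were shallower than the rest. The median was 7536 UMIs in chosen against 8760 in other cells of Olaparib + LLY-283, and 35473 against 42676 in Combo. In 4 groups of equal size by depth, from the shallowest, 13.4%, 10.8%, 9.44% and 6.32% of gated cells were chosen in Olaparib + LLY-283, and 13.95%, 14.2%, 7.51% and 4.15% in Combo. Median mitochondrial shares were 0.872% against 1.06% and 1.11% against 1.20%. The part of depth in the results below was not tested apart from the alternative choices given beside them.

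Keratin expression fitted the gate in both classes. Krt8 was at 953 counts per 1000000 UMIs (CPM) in chosen and 833 CPM in other cells of Olaparib + LLY-283, and at 824 and 678 CPM in Combo. Krt18, the partner keratin of Krt8, was at 166 and 112 CPM, and at 131 and 63.7 CPM. The epithelial adhesion gene Epcam was near 0 throughout, with 2.28 and 3.60 CPM in Olaparib + LLY-283 and 2.18 and 3.15 CPM in Combo. Markers of other cell types were summed by list. The 10 macrophage markers, led by Lyz2, summed to 176 CPM in chosen and 172 CPM in other cells of Olaparib + LLY-283, and to 211 and 190 CPM in Combo. The 8 neutrophil markers, led by S100a9, summed to 319 against 215 CPM and to 274 against 278 CPM. The 8 T and NK cell markers summed to 0.760 against 2.24 CPM and to 1.64 against 2.22 CPM, with 6 and 4 of them at 0 UMIs in the chosen cells. The 8 dendritic, 7 endothelial, 7 skeletal muscle, 6 nerve and Schwann and 4 red blood cell markers each summed to at most 27.9 CPM in the chosen cells. The 8 fibroblast markers, among them Col5a2, which the gate limited, summed to 488 against 978 CPM and to 619 against 1153 CPM, with Col3a1 the most abundant.

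Every gene of the choice was several-fold higher in the chosen cells, as the choice required, and these values are given as a description. Areg was at 1498 CPM in chosen and 308 CPM in other cells of Olaparib + LLY-283, and at 1004 and 167 CPM in Combo. Adm was at 1009 and 114 CPM, and at 1298 and 137 CPM. Bdnf was at 268 and 110 CPM, and at 223 and 89.7 CPM. Sox9 was at 204 and 62.9 CPM, and at 233 and 60.7 CPM. Areg and Adm together thus made up most of the share, and Bdnf differed least, by 2.44-fold and 2.48-fold. Where each UMI was drawn at random into 1 of 2 sets, with cells chosen on one set and levels read in the other, the ratios of Areg were 4.46-fold and 6.02-fold, of Adm 7.14-fold and 9.0-fold, of Sox9 2.75-fold and 3.78-fold and of Bdnf 2.17-fold and 2.26-fold, in Olaparib + LLY-283 and Combo.

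The 4 genes were also higher in cells chosen without them. Each gene was left out in turn and the top 10% taken by the other 3. Sox9 was then 2.50-fold (Olaparib + LLY-283) and 3.23-fold (Combo) higher in the cells chosen by Areg, Bdnf and Adm than in the rest. Areg was 2.17-fold and 2.61-fold higher in cells chosen without it, Bdnf 2.00-fold and 2.27-fold, and Adm 2.88-fold and 2.88-fold. The 4 genes had been picked from these data as going together, so these ratios describe that choice and lend it no support. Single genes gave the same direction in every pair. Cells chosen by Sox9 alone had 1.82-fold and 2.66-fold more Areg and 2.61-fold and 2.75-fold more Adm, and cells chosen by Bdnf alone had 2.58-fold and 4.19-fold more Adm. The genes shared the UMI total of each cell, and the cells of a library are not replicates.

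Few cells were led by Sox9 or Bdnf. Areg gave the most UMIs of the 4 in 369 of 614 chosen cells (60.1%) of Olaparib + LLY-283 and in 63 of 154 (40.9%) of Combo. Adm led in 217 (35.3%) and 87 (56.5%) cells. Sox9 led in 8 and 1 cells and Bdnf in 6 and 1, and 14 and 2 cells were tied. All 4 genes were detected in 47.4% and 74.0% of chosen cells against 11.8% and 38.5% of the other cells.

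**Figure D2:**
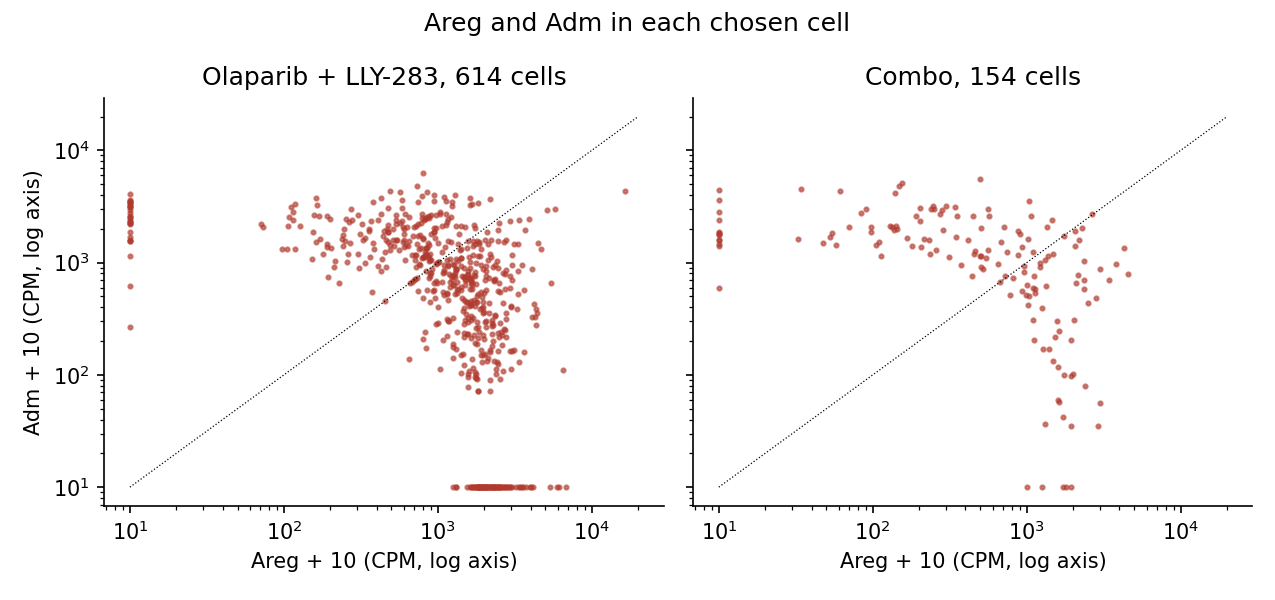
Areg (x axis) against Adm (y axis) in each chosen cell, in CPM plus 10 on log axes, with equality as a dotted line. Cells lie on both sides of the line in both libraries, 369 led by Areg and 217 by Adm in Olaparib + LLY-283 and 63 and 87 in Combo, and the empty corner near the origin follows from the choice by a summed share.

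At a fixed depth of 2000 UMIs per cell, Areg was detected in 82.1% of chosen, 36.2% of other tumour cells and 10.4% of leukocytes of Olaparib + LLY-283, and in 65.6%, 22.0% and 6.63% in Combo. Adm was detected in 67.3%, 16.4% and 9.23%, and in 79.2%, 19.2% and 8.01%. Sox9 was detected in 32.9%, 11.0% and 1.13%, and in 33.8%, 9.99% and 1.78%. Bdnf was detected in 38.6%, 18.2% and 3.15%, and in 37.0%, 15.6% and 1.98%. The leukocytes, cells with at least 0.1% of UMIs from Tyrobp and Ptprc, are given for comparison. How far their values stand for free RNA was not tested, and their levels relative to tumour cells differed by gene. With all UMIs, Adm was at 53.7 CPM in leukocytes and 114 CPM in other tumour cells of Olaparib + LLY-283, and at 40.9 and 137 CPM in Combo. Sox9 was at 5.30 and 62.9 CPM, and at 7.12 and 60.7 CPM. The leukocytes were shallower, with median depths of 2985 and 3265 UMIs before thinning. With all UMIs the shares of chosen and other tumour cells were 95.4% and 70.9% for Areg, 87.0% and 41.6% for Adm, 67.9% and 34.3% for Sox9 and 76.9% and 55.2% for Bdnf in Olaparib + LLY-283, and 91.6% and 75.4%, 96.8% and 75.3%, 83.1% and 61.5%, and 96.1% and 82.0% in Combo.

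Pdk4, which the choice did not use, was higher in the chosen cells of both libraries. It had been listed with the 4 genes as a marker of these cells, with earlier results of these data known, so its values are a description. It was at 39.9 CPM in chosen and 11.9 CPM in other cells of Olaparib + LLY-283 (3.37-fold, log2 ratio 1.75, interval 1.52 to 1.98), and at 27.1 and 9.49 CPM in Combo (2.86-fold, log2 ratio 1.52, interval 1.24 to 1.78). Few chosen cells had a UMI of it, at a mean of 0.342 UMIs per chosen cell in Olaparib + LLY-283 and 0.968 in Combo. At 2000 UMIs per cell it was detected in 6.19% of chosen and 2.39% of other cells of Olaparib + LLY-283 and in 5.84% and 2.16% in Combo, against 17.6% and 8.65%, and 27.3% and 21.6%, with all UMIs. Counting all UMIs, 4 of 444 (0.901%) and 5 of 1011 (0.495%) leukocytes held it. At 2000 UMIs none did, and the exact intervals for cells with a UMI at that depth reach 0.827% and 0.364%. The 10 cells with the most Pdk4 held 27.6% of its UMIs among chosen cells of Olaparib + LLY-283 and 65.1% in Combo. The difference also depended on Adm, since cells chosen by Sox9, Areg and Bdnf gave log2 ratios of 0.98 and 0.69.

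Across the transcriptome, 8014 genes with at least 500 UMIs over the gated tumour cells of each library were compared, leaving out the 4 genes of the choice. The median log2 ratio of chosen over other cells was -0.16 in Olaparib + LLY-283 and -0.12 in Combo, and list medians are best read against these values. A gene is called higher or lower here where it lay past 1.5-fold in the same direction in both libraries. In this sense 350 genes were higher (4.37%) and 626 lower (7.81%), and at 2-fold there were 104 and 70. With cells chosen without Adm, 198 of the higher and 200 of the lower genes were called again, and other settings are given at the end. The signs differed between the libraries for 1267 genes. These calls come from the contrast that defined the cells and are descriptions without a test.

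**Figure D3:**
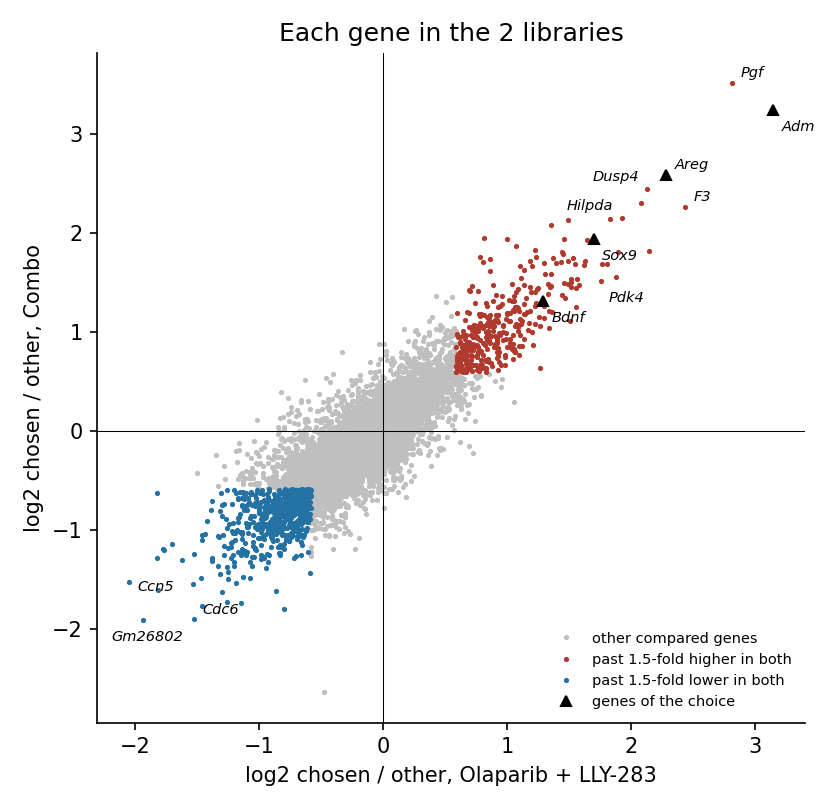
Log2 ratio of chosen over other tumour cells for each compared gene in Olaparib + LLY-283 (x axis) and Combo (y axis), with the 350 genes called higher in red, the 626 called lower in blue and the genes of the choice as black triangles. Pgf lies farthest out among genes not used in the choice, at 2.82 and 3.51, and Gm26802, Ccn5 and Cdc6 lie at the lower end. Gm26802 had 18 and 17 UMIs in the chosen cells, and its sign changed in Combo without Adm in the choice.

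The 15 genes farthest above equality were Pgf, F3, Dusp4, Hilpda, Spry2, Dusp5, Bhlhe41, Tiparp, Plau, Ankrd37, Usp53, Dusp10, Pthlh, Proser2 and Bhlhe40, ranked by the library in which each was nearer to 0. Pgf encodes placental growth factor, a relative of VEGF. It was at 76.6 CPM in chosen and 10.9 CPM in other cells of Olaparib + LLY-283 and at 73.1 and 6.41 CPM in Combo, which is 7.04-fold (log2 interval 2.63 to 3.00) and 11.4-fold (3.31 to 3.72). F3, tissue factor, the starter of blood clotting, was at 220 and 40.8 CPM and at 270 and 56.4 CPM. Plau, the protease urokinase, was at 228 and 67.1 CPM and at 270 and 83.7 CPM. Pthlh, the parathyroid hormone-related peptide, was at 53.4 and 17.4 CPM and at 46.7 and 14.7 CPM. Dusp4, Dusp5 and Dusp10 encode phosphatases of MAP kinases, and Bhlhe40 and Bhlhe41 transcriptional repressors. Tiparp, an ADP-ribosyltransferase induced by the aryl hydrocarbon receptor and by hypoxia, was at 331 and 89.1 CPM and at 392 and 112 CPM.

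**Figure D4:**
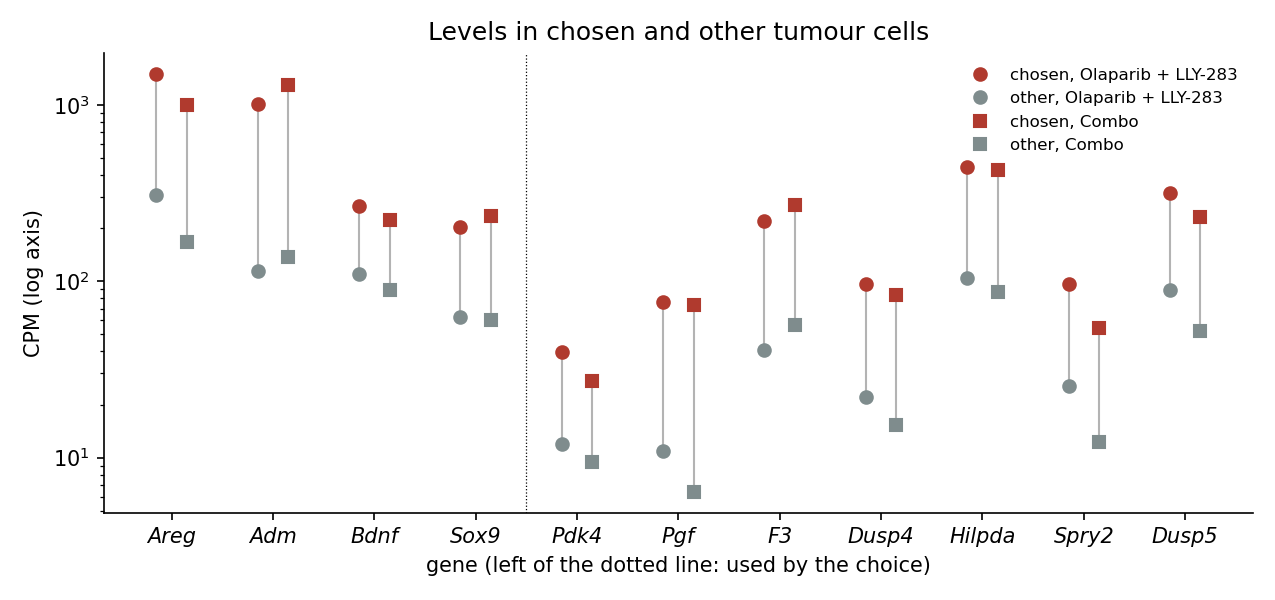
Level in CPM (log y axis) of the 4 genes of the choice, of Pdk4 and of the 6 leading genes (x axis), in chosen (red) and other (grey) tumour cells of Olaparib + LLY-283 (circles) and Combo (squares), joined by a grey line. Every gene is higher in the chosen cells of both libraries, and genes left of the dotted line were used to choose them.

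Genes of the hypoxia response were the list with the most calls. Cells in low oxygen stabilise HIF transcription factors, which raise glucose uptake, glycolysis and vessel growth factors. Of 28 compared members, 18 were higher and 0 lower (against 4.37% of all genes higher), with median log2 ratios of 0.71 in Olaparib + LLY-283 and 0.88 in Combo. Hilpda, which coats lipid droplets, was at 443 CPM in chosen and 105 CPM in other cells of Olaparib + LLY-283 and at 426 and 86.6 CPM in Combo. Ankrd37 was at 227 and 65.2 CPM and at 214 and 66.4 CPM. Bhlhe40, a transcriptional repressor, was at 203 and 69.5 CPM and at 245 and 76.3 CPM. Pfkfb3, which makes an activator of glycolysis, was at 24.9 and 8.45 CPM and at 38.9 and 13.4 CPM. The growth factor Vegfa was at 295 and 105 CPM and at 325 and 99.2 CPM, and the hexokinase Hk2, whose start is shown above, at 249 and 85.1 CPM and at 254 and 93.6 CPM. Gapdh, the most abundant member, differed less, with log2 ratios of 0.37 and 0.43. Adm is itself a gene of this response. With cells chosen by Sox9, Areg and Bdnf alone, 9 of the 28 members were higher, and 16 with the choice made within 10 bins of depth. The 4.37% does not apply to these choices. Without Adm 212 of the 8014 compared genes were higher, 198 of them among the 350 of the 4-gene choice. Within depth bins 289 of the 350 were called again, and the full count stayed within 1.5 times of 350. The ACGTG letters were in the promoter window of 19 of the 27 listed genes with an entry (70.4%). That count covers the whole list, called or not. It is a property of a list made of known hypoxia genes, does not depend on these cells and lends the calls no support. The shares were 26.9% of the compared genes with an entry and 35.4% of those called higher, which include the hypoxia genes called.

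Another EGF receptor ligand and some genes of the kinase pathway below the receptor were higher too. Hbegf, the only ligand besides Areg with enough UMIs, was at 480 CPM in chosen and 171 CPM in other cells of Olaparib + LLY-283 and at 426 and 97.2 CPM in Combo (log2 ratios 1.49 and 2.13). The receptor Egfr itself was at 11.4 and 11.1 CPM and at 8.90 and 13.5 CPM, with log2 ratios of 0.05 (interval -0.37 to 0.42) and -0.58 (-1.04 to -0.18). Of 16 genes of ERK output, 7 were higher (against 4.37% of all genes) and 0 lower, with medians of 0.34 and 0.67. Dusp4, a phosphatase of ERK, was at 96.5 and 22.2 CPM and at 83.6 and 15.4 CPM. Dusp5, a related phosphatase, was at 318 and 89.7 CPM and at 230 and 52.3 CPM. The inhibitor Spry2 was at 96.0 and 25.3 CPM and at 54.0 and 12.2 CPM. Ier3, an early gene of growth signals, was at 1885 and 661 CPM and at 1719 and 592 CPM. The remaining 9 were not called, among them Dusp6, a further ERK phosphatase, with log2 ratios of 0.11 and 0.42, and Spry1, a relative of Spry2, with -0.71 and -0.53. The count of higher members was also 7 when any of the 4 genes was left out of the choice. The 4.37% belongs to the 4-gene choice. Without Adm 212 of the 8014 compared genes were higher, 198 of them among the 350 of that choice. Without Sox9, Areg or Bdnf, 329, 302 and 328 of the 350 were called again. The full counts of these 3 choices stayed within 1.5 times of 350.

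The partners of Adm and Bdnf were sparse. Of 15 listed receptors and relatives, 2 had enough UMIs and both were higher (against 4.37% of all genes). Ackr3, a receptor that takes up adrenomedullin and chemokines, was at 33.1 CPM in chosen and 18.5 CPM in other cells of Olaparib + LLY-283 and at 38.7 and 17.4 CPM in Combo. Adm2, a peptide related to Adm, was at 18.1 and 11.3 CPM and at 28.0 and 12.2 CPM. In the chosen cells 7 and 6 of the 15 were at 0 UMIs.

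Of 8 compared genes of the pyruvate dehydrogenase complex and its kinases, 2 were higher, Pdk4 and Pdk1, and 0 lower (against 4.37% of all genes higher and 7.81% lower). The others were the kinase Pdk3 and the subunits Dld, Dlat, Pdha1, Pdhb and Pdhx. Pdk1, a gene of the hypoxia list as well, was at 76.0 CPM in chosen and 47.9 CPM in other cells of Olaparib + LLY-283 and at 86.3 and 51.8 CPM in Combo. Pdk3 was at 44.8 and 37.5 CPM and at 46.2 and 36.1 CPM, short of 1.5-fold. Of 21 genes of FOXO, PPAR and glucocorticoid responses, which also act on Pdk4, 5 were higher and 5 lower, both shares above the 4.37% and 7.81% of all genes. Ccng2, a cyclin of resting cells, was at 74.1 and 26.9 CPM and at 89.8 and 35.5 CPM, and Cited2, a brake on HIF, at 872 and 345 CPM and at 670 and 325 CPM. The glucose sensor Txnip was lower, at 5.32 and 12.9 CPM and at 11.6 and 23.1 CPM.

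Inflammatory factors formed a further group. Of 14 NF-kB targets and inflammatory factors, 8 were higher (against 4.37% of all genes) and 0 lower, with medians of 0.76 and 0.68. Nfkbia, the inhibitor of NF-kB, was at 618 CPM in chosen and 305 CPM in other cells of Olaparib + LLY-283 and at 654 and 362 CPM in Combo. Tnfaip3, a further inhibitor, was at 59.3 and 20.9 CPM and at 67.8 and 31.3 CPM. The neutrophil-attracting chemokine Cxcl1 was at 254 and 133 CPM and at 317 and 160 CPM. The cytokines Lif and Il11 of the IL-6 family were at 21.1 and 10.1 CPM and at 53.2 and 28.9 CPM in Olaparib + LLY-283, and at 21.3 and 10.2 CPM and at 46.5 and 16.8 CPM in Combo. Il11 went with Areg, since its log2 ratios were -0.50 and -0.52 in cells chosen without that gene. Ptgs2, the inducible cyclooxygenase and the leading gene of the cAMP list, was at 1168 and 426 CPM and at 1125 and 293 CPM. Of 13 compared genes of the cAMP list 3 were higher and 1 lower (against 4.37% and 7.81% of all genes). The medians of this list were -0.12 and 0.02, so Ptgs2 does not stand for the whole list.

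Early response and stress genes were higher in part, and the counts are again to be read against 4.37% of all genes higher and 7.81% lower. Of 19 immediate early and heat shock genes, a list that also rises when tissue is dissociated, 7 were higher and 0 lower, with medians of 0.15 and 0.49. Fos, the most abundant, had log2 ratios of -0.52 and -0.16. The chaperone Hspa1b was at 294 CPM in chosen and 167 CPM in other cells of Olaparib + LLY-283 and at 481 and 125 CPM in Combo, and Dnajb1 at 589 and 324 CPM and at 727 and 218 CPM. Of 18 genes of ATF4 and unfolded protein stress 4 were higher and 1 lower, with Ddit3 at 98.2 and 52.2 CPM and at 124 and 54.8 CPM. Of 14 p53 targets 4 were higher and 1 lower, among them Mdm2 at 199 and 85.1 CPM and at 189 and 77.0 CPM, and the cell cycle inhibitor Cdkn1a at 282 and 158 CPM and at 252 and 119 CPM. Of 15 NRF2 targets and metallothioneins 3 were higher and 1 lower, and the 3 do not stand for the whole list. They were the heme oxygenase Hmox1, at 599 and 255 CPM and at 717 and 212 CPM, and the metal-binding Mt1 and Mt2, with log2 ratios of 1.06 and 1.36, and of 1.04 and 1.31. The NRF2 target Nqo1 was lower, at 12.9 and 21.5 CPM and at 13.8 and 23.7 CPM.

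Further lists are given against the same 4.37% of all genes higher and 7.81% lower. Of 21 YAP and TEAD targets 5 were higher and 0 lower, among them F3, the growth arrest gene Gadd45a at 135 and 48.3 CPM and at 134 and 47.9 CPM, and Wwc1. Of 15 genes of TGF-beta and BMP responses 3 were higher and 2 lower, with Inhba, an activin subunit, at 342 and 156 CPM and at 307 and 126 CPM, and Id3 lower at 84.4 and 190 CPM and at 137 and 251 CPM. Of 6 WNT and NOTCH genes 1 was higher, the ligand Wnt7b, at 29.6 and 18.1 CPM and at 25.8 and 9.37 CPM. It was the only member with a log2 ratio above 0 in Olaparib + LLY-283. Of 6 checkpoint ligands 2 were higher and 1 lower. Pvr, the ligand of TIGIT and CD226, was at 47.1 CPM in chosen and 18.5 CPM in other cells of Olaparib + LLY-283 and at 63.2 and 15.0 CPM in Combo. Of 15 angiogenic and secreted factors 4 were higher and 1 lower, led by Pgf, and Angpt1 was lower, at 39.7 and 77.6 CPM and at 57.6 and 105 CPM. Median log2 ratios were 0.02 and 0.04 for YAP and TEAD targets and -0.07 and 0.22 for TGF-beta and BMP. They were -0.36 and -0.00013 for WNT and NOTCH, 0.007 and -0.02 for checkpoint ligands and -0.18 and -0.18 for angiogenic factors. All compared genes had -0.16 and -0.12, and the genes named do not stand for whole lists.

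Most of the replication genes compared were lower. Of 23 compared S phase genes 0 were higher and 14 lower (against 7.81% of all genes lower), with medians of -0.70 and -0.82. Cdc6, which loads the replicative helicase, was at 3.80 CPM in chosen and 11.2 CPM in other cells of Olaparib + LLY-283 and at 2.73 and 10.4 CPM in Combo. Dtl, of the replication checkpoint, was at 5.89 and 15.6 CPM and at 5.27 and 13.3 CPM, Clspn at 11.0 and 27.4 CPM and at 9.81 and 30.5 CPM, and Rrm2, a subunit of ribonucleotide reductase, at 22.0 and 52.8 CPM and at 20.2 and 54.4 CPM. Ccne1, the cyclin of S phase entry, was also among the 15 lowest genes, at 9.12 and 25.3 CPM and at 6.54 and 22.5 CPM. From both classes the gate had removed only cells at or above its limit for the mitotic genes. Median shares of these genes were 0.0145% in chosen and 0.0149% in other cells of Olaparib + LLY-283, and 0.00953% and 0.00986% in Combo. Among 14 remaining G2 and mitosis genes 0 were higher and 1 lower, a share near the 7.81% of all genes. The chosen cells were also shallower, and the part of depth in this result was not tested. With the choice made within depth bins 10 S phase genes were lower. With cells chosen without Adm there were 8. The 7.81% does not apply to these choices. Without Adm 231 of the 8014 compared genes were lower, 200 of them among the 626 of the 4-gene choice. Within depth bins 458 of the 626 were called again, and the full count stayed within 1.5 times of 626.

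Some collagen and matrix genes were lower as well. Of 17 mesenchymal genes 1 was higher and 4 lower (against 7.81% of all genes), and 12 were not called, among them the fibronectin gene Fn1, with log2 ratios of -0.21 and -0.04, and the collagen cross-linking Lox, with 0.35 and 0.47. Vim, the most abundant member, had log2 ratios of 0.23 and 0.23. Col3a1 was at 226 CPM in chosen and 505 CPM in other cells of Olaparib + LLY-283 and at 287 and 580 CPM in Combo, Col1a2 at 855 and 1619.9 CPM and at 977 and 1710.9 CPM, and Sparc at 569 and 1027 CPM and at 703 and 1152 CPM. Of the 4 compared proteoglycan and matrix genes listed with Mgp, Omd and Ogn, 3 were lower, with Ogn at 263 and 536 CPM and at 301 and 690 CPM. Ccn5, a matricellular protein and one of the lowest genes, was at 6.08 and 25.5 CPM and at 9.09 and 26.4 CPM. Fibroblast markers moved the same way, as given above, and a part of fibroblast RNA in these values was not tested.

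Of 27 interferon response genes 0 were higher and 5 lower (against 7.81% of all genes), with medians of -0.41 and -0.42. Gbp2, a GTPase induced by interferon gamma, was at 84.6 CPM in chosen and 147 CPM in other cells of Olaparib + LLY-283 and at 161 and 270 CPM in Combo. H2-D1, the class I antigen-presenting molecule and the most abundant member, was at 1417 and 1902 CPM and at 1839 and 2248 CPM. A list of 11 compared genes around PRMT5 and PARP enzymes, which holds relatives and partners beside the drug targets, had 0 higher and 2 lower (against 7.81% of all genes), Wdr77 and Prmt7. The ADP-ribosyltransferase Tiparp, among the 15 highest genes, was not in this list. Prmt5 itself was at 29.3 and 32.1 CPM and at 25.1 and 32.1 CPM, and Parp1 at 23.4 and 36.4 CPM and at 28.3 and 41.4 CPM, neither of them called. Wdr77, the partner of Prmt5, was at 34.8 and 57.0 CPM and at 38.7 and 59.2 CPM.

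The remaining lists are given against the same 4.37% of all genes higher and 7.81% lower. Among SOX genes other than Sox9, Sox4 alone had enough UMIs, at 350 and 258 CPM and at 379 and 236 CPM, and none of 16 cartilage matrix genes did, with 3.99 CPM in all in the chosen cells of Olaparib + LLY-283 and 4.36 CPM in Combo. Of 5 epithelial genes 0 were called, and of 10 mammary luminal progenitor and basal genes 1 was higher (Lif) and 3 were lower, among them Trp63, a basal cell factor, at 6.08 and 10.3 CPM and at 7.63 and 12.1 CPM. Of 20 ribosomal protein genes 0 were called, with medians of 0.07 and 0.01, and of 10 mitochondrially encoded genes 0, with medians of -0.22 and -0.10. Of 5 nuclear noncoding RNAs 0 were called, and Malat1 had log2 ratios of 0.37 and 0.64. Of 10 cell cycle inhibitors 3 were higher and 1 lower, and of 3 genes listed with Klk10, Cst6 and Sfn 0 were called. None of the 4 genes listed for Il24 and its receptors had enough UMIs to be compared.

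**Figure D5:**
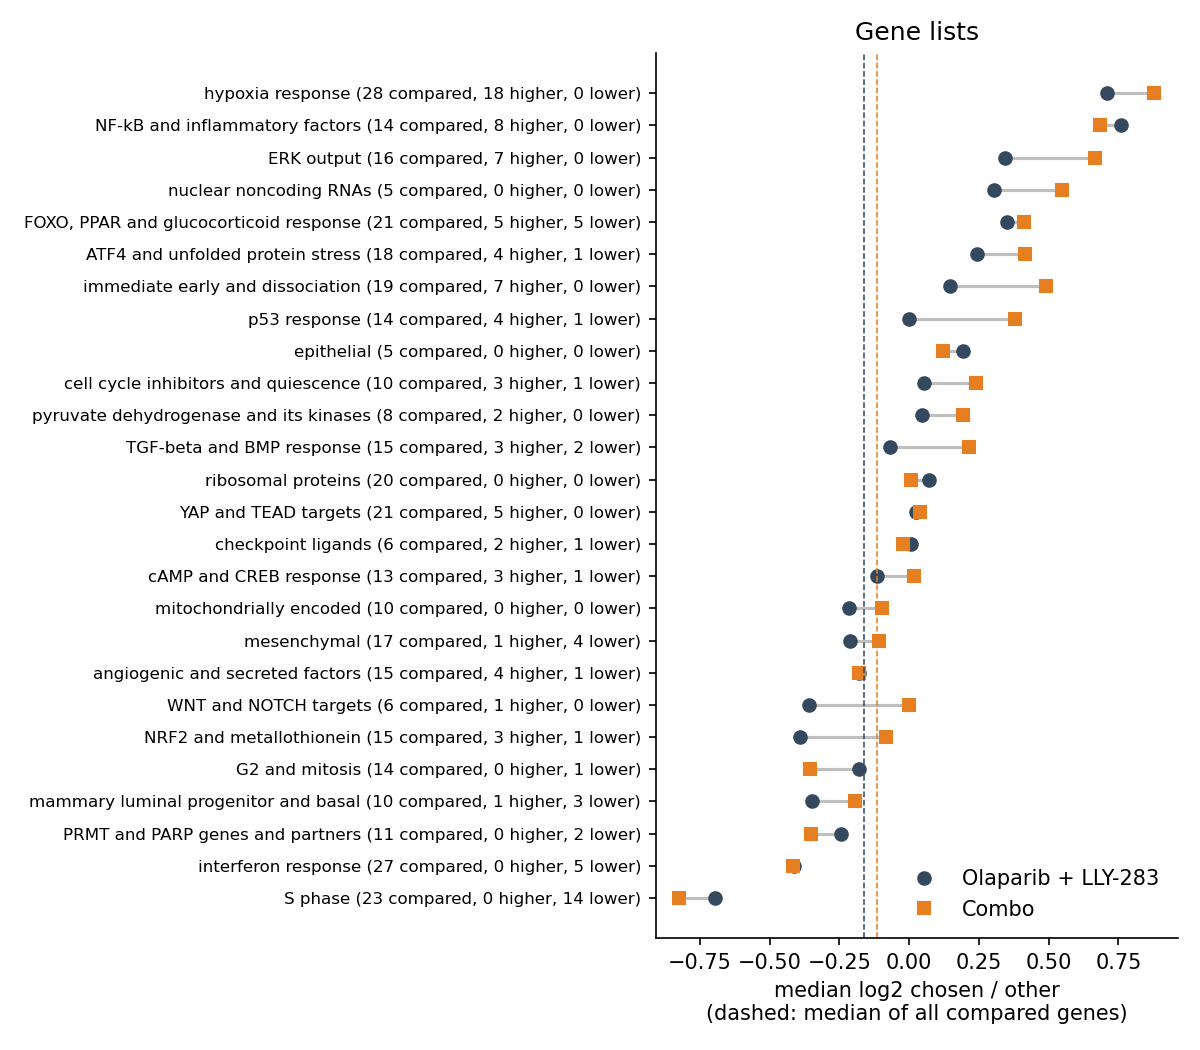
Median log2 ratio of chosen over other tumour cells (x axis) over the compared members of each gene list with at least 5 of them (y axis, with the numbers compared, higher and lower), in Olaparib + LLY-283 (circles) and Combo (squares), with the medians of all compared genes as dashed lines. The hypoxia response (0.71 and 0.88) and the NF-kB and inflammatory factors (0.76 and 0.68) lie highest, and S phase lowest, at -0.70 and -0.82.

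Among the chosen cells, those led by Areg and those led by Adm were compared after their values had been seen, over 5115 genes with at least 100 UMIs in the chosen cells of each library. The split uses the values that chose the cells, and Adm is itself a hypoxia gene, so the differences are a description. Past 2-fold in both libraries, 3 genes were higher (0.0587%) and 9 lower (0.176%) in the cells led by Areg. Among the genes higher there were the cytokines Il11 and Clcf1 of the IL-6 family. Il11 was at 72.4 CPM in Areg-led and 19.5 CPM in Adm-led cells of Olaparib + LLY-283 and at 83.6 and 14.2 CPM in Combo, and Clcf1 at 52.7 and 20.6 CPM and at 44.5 and 16.0 CPM. The 9 were Dusp4, Bhlhe40, Edn1, F3, Pfkfb3, Bhlhe41, Ddit4, Gadd45a and 1810026B05Rik. Bhlhe40 was at 119 and 368 CPM and at 137 and 344 CPM. The 28 hypoxia genes had medians of -0.47 and -0.54, with 3 lower and 0 higher, against medians of 0.06 and 0.07 over all these genes. The 14 ERK output genes had medians of 0.11 and 0.20, with 1 lower (Dusp4) and 0 higher. Ier3 (log2 ratios -0.84 and -0.88) and Spry2 (-0.69 and -0.45) were also lower in Areg-led cells, and Dusp5 (-0.37 and 0.39) changed sign. Others were higher there, among them Dusp6 (0.32 and 0.90). Sox9 was at 182 and 208 CPM and at 263 and 194 CPM, and Pdk4 at 29.6 and 58.4 CPM and at 29.3 and 26.3 CPM, so neither kept 1 direction. Median depths were 7848 and 7005 UMIs, and 40157 and 32272.

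The chosen cells overlapped with other states of the gated tumour cells, each taken as the top 10% by its own genes. Those with the most hypoxia list transcripts held 29.5% (exact binomial interval 25.9% to 33.3%) of chosen cells in Olaparib + LLY-283 and 27.9% (21% to 35.7%) in Combo, where 10.0% of gated cells were in the state. The Klk10, Cst6 and Sfn state held 15.1% and 18.2%, the interferon state 5.21% and 6.49%, the Mgp, Omd and Ogn state 4.40% and 2.60%, and the S phase state 1.63% and 0.649%. Since all states were taken as equal shares of the gated cells, the same values are the shares of each state that was chosen.

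Cells outside the gate also reached the cut. Among keratin cells set aside only for Il24, 15 of 36 (41.7%, 25.5% to 59.2%) reached it in Olaparib + LLY-283 and 27 of 192 (14.1%, 9.48% to 19.8%) in Combo. Among keratin cells set aside for mitotic genes it was 5.49% and 6.33%. It was 8.74% and 1.60% among keratin cells set aside for Tyrobp or Ptprc, 4.17% and 2.56% among those set aside for Col5a2, and 0.588% and 2.63% among cells with Col5a2 and without keratins. Among leukocytes it was 0.225% and 0.495%.

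Lastly, the chosen cells of Combo were set against those of Olaparib + LLY-283. With 1 library per group the antibody, the pooled mice and the library cannot be told apart, and the libraries differed in depth, with medians of 35473 and 7536 UMIs in the chosen cells. Of 2937 genes with at least 500 UMIs over these cells, 5 were more than 2-fold higher in Combo (0.17%) and 0 more than 2-fold lower (0%). The 5 were the proteoglycan Dcn, Gm42418, the transcription factor Cebpd, Gm28438 and the guanylate-binding Gbp2b, and 2 of them were also past 2-fold in the other tumour cells. Dcn was at 142 CPM in Combo and 51.1 CPM in Olaparib + LLY-283 among chosen cells, and at 232 and 94.7 CPM among other cells. Gbp2b was at 113 and 50.9 CPM, and at 197 and 93.2 CPM. Cebpd was at 74.0 and 32.3 CPM in chosen cells but at 40.2 and 33.2 CPM in other cells, and the log2 difference between chosen and other cells of 0.92 had a counting interval of 0.65 to 1.19. Bag3, a co-chaperone, behaved alike, with 82.1 and 43.5 CPM in chosen and 31.9 and 32.5 CPM in other cells (difference 0.94, 0.70 to 1.19). Of 17 immediate early and heat shock genes compared between the chosen cells, 0 were past 2-fold in either direction, and the chaperones Hspa1b and Dnajb1 were 1.64-fold and 1.23-fold higher in Combo. In the other tumour cells they were lower there, at 0.745-fold and 0.673-fold, and the list's median log2 difference was 0.22 in chosen and -0.33 in other cells.

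Of the genes of the choice, Areg was lower in Combo in both classes, 0.670-fold in chosen and 0.543-fold in other cells, and Bdnf was 0.830-fold and 0.816-fold. Adm was 1.29-fold and 1.20-fold higher, and Sox9 1.14-fold in chosen and 0.964-fold in other cells. Because each library had its own cut, the levels of these 4 genes in chosen cells follow from the choice. Pdk4 was 0.679-fold and 0.800-fold in Combo. The lowest genes were Hes1, a NOTCH target, at 39.3 CPM in Combo and 77.0 CPM in Olaparib + LLY-283, Spata7 at 168 and 310 CPM, and Spry2 at 54.0 and 96.0 CPM. Their ratios in the other tumour cells were similar, 0.506-fold, 0.508-fold and 0.482-fold against 0.511-fold, 0.543-fold and 0.563-fold in the chosen cells.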

How the data were processed

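Tumours were dissociated and sequenced by the authors with 10x Genomics 3′ reagents, and reads were turned into counts with Cell Ranger on the mouse genome mm10. The submitters' processing notes name bcl2fastq 5.0.1, Cell Ranger and Seurat 4.1.0. The deposited matrices hold whole-number UMI counts per gene and cell, not normalized, and no annotation of cells was used here. The members and the 34 gene lists were chosen with earlier results of these data known.

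UMIs were summed over chosen and over other cells of a library and divided by all their UMIs (CPM). Log2 ratios were taken with 0.5 UMI added, with exact conditional 95% intervals that cover counting error only. A call asked for 1.5-fold in both libraries, or 2-fold between libraries, among genes with at least 500 UMIs. No test between groups of cells or libraries was made, since each group had 1 library and the choice used the same cells. The genes named were the 4 of the choice and Pdk4, the 15 highest and 15 lowest, up to 4 with the largest ratio and the most abundant gene of each list, and the 8 largest and smallest between libraries. Vegfa came in through a second list. Hk2, Spry1, Dusp6, Fn1, Lox, Prmt5, Dld, Dlat, Pdhb, the Egfr values, the Il11 values without Areg and the comparison of Areg-led with Adm-led cells were picked after the values were seen. Scrublet (scanpy 1.11.5) marked 0 of 16029 and 0 of 5956 cells at its own threshold and so had not worked, and cells with the highest scores were left out as an added alternative. The calculation of ratios and intervals was checked on simulated counts. Python 3.11.15 with numpy 2.4.6 and scipy 1.17.1 was used. A gene higher in the Areg-led cells is not reported here.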

Additional observations from a re-analysis of the deposited data

Results flagged for a closer look

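Among the genes named, 2 had log2 ratios of chosen over other tumour cells whose counting intervals lay on opposite sides of 0 in the 2 libraries, and the difference between libraries was not tested. Mgp, the matrix Gla protein, had -0.17 in Olaparib + LLY-283 and 0.20 in Combo. S100a9, a neutrophil marker, had 0.62 in Olaparib + LLY-283 and -0.11 in Combo, where it was at 177 against 115 CPM and at 139 against 150 CPM in chosen against other cells. Outside the genes named, Klf2 of the immediate early list was picked after its values were seen. It had -0.63 (interval -0.76 to -0.50) in Olaparib + LLY-283 and 0.52 (0.41 to 0.63) in Combo.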

How the results depend on the processing

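Without Adm in the choice the counts of called genes fell from 350 to 212 higher and from 626 to 231 lower, with 9 hypoxia and 8 S phase genes called, and the log2 ratios of Pdk4 were 0.98 in Olaparib + LLY-283 and 0.69 in Combo. Of those calls 198 higher and 200 lower genes were shared with the 4-gene choice. With cells thinned to 2000 UMIs before the choice 317 genes were lower, with the top 20% there were 369 lower and 8 S phase genes, and against the lower 50% of gated cells 977. At 2-fold there were 104 higher and 70 lower genes, with 2000 UMIs per gene 185 and 243, and with 100 UMIs per gene 1027 were lower. In Olaparib + LLY-283 alone 1085 genes were lower, and in Combo alone 583 were higher and 963 lower. The Pdk4 ratio in Combo was 1.19 after thinning, 1.97 for the top 5% and 0.84 for the top 20%, and in Olaparib + LLY-283 it was 2.05 with the genes weighted by their mean shares, 2.17 without Areg and 2.18 against the lower 50%. Pdk4 was detected in 17.6% and 27.3% of chosen cells with all UMIs and in 3.42% and 2.60% at 1000 UMIs. Between libraries the 5 genes higher in Combo became 8 with the choice within depth bins and with the top 20%, and 3 with UMIs divided into 2 sets. The 0 lower genes became 1 after thinning, for the top 5%, with at least 5000 UMIs and with the highest Scrublet scores left out, the last chosen after seeing the data. Il11 changed sign without Areg (-0.50 and -0.52), Ifit1 in Combo with weighted genes (0.43) and Gm26802 in Combo without Adm (0.13). The other counts stayed within 1.5 times of those reported, and 3390 of 4710 values of 157 named genes over 15 settings stayed within their counting intervals. The causes of these shifts were not tested. No paired analysis was possible because each group had 1 library. The calls of Scrublet at its own threshold gave no alternative, since it marked 0 cells.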
